A study of Mus musculus with 16 samples.

Results

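Levels of 9 genes of limb and mesenchyme patterning were followed in all 16 RNA-seq libraries of C2C12 cells, mouse myoblasts that form myotubes once serum is reduced. The 9 genes are *Tbx2*, *Tbx3*, *Tbx4*, *Tbx5*, *Tbx15*, *Tbx18*, *Pitx1*, *Ldb2* and *Lmx1b*, taken by their Ensembl identifiers from the 49585 genes of the count tables. They were selected on their levels in the TET2 libraries, as related factors among which *Tbx4* and *Ldb2* are near absent in TET2-S97E, so the contrast of TET2-S97E with TET2-WT is described for them without a test.

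The first experiment compared WT cells with AMPK-KO cells, in which the catalytic subunit genes *Prkaa1* and *Prkaa2* were both disrupted, at differentiation day 0 (d0, myoblasts in fetal bovine serum) and day 8 (d8, after the switch to equine serum). Each genotype and day had 2 libraries, and it is not labelled which knockout line gave which AMPK-KO library. The second experiment compared undifferentiated TET2-WT and TET2-S97E cells. All of these are AMPK-/- cells that carry a FLAG-BirA tag at the endogenous *Tet2* locus; in TET2-S97E cells serine 97 is also replaced by glutamic acid, which mimics the phosphorylation of TET2 by AMPK. Each TET2 genotype was represented by 2 clones with 2 libraries per clone, so that a genotype effect and a clone effect are separated by only 2 clones a side. Nothing in the labels says that the libraries of a group or clone came from separate cultures, so the p-values below measure the spread between these libraries, which may be technical. That spread is wider than counting noise, with a chi-square per degree of freedom of 29.4 to 107 between the 2 libraries of a group or clone. Where 2 groups of 2 libraries do not differ, they still fail to overlap with a probability of 0.333 (exact permutation). The share of all genes without overlap was not counted, so a lack of overlap below is a description. Depth was 17883417 to 24663079 counts a library in the first experiment and 19801909 to 37790358 counts in the second. A gene with at most 3 counts in a library is called not detected there; 3 counts correspond to 0.0794 to 0.165 CPM (counts scaled to a fixed library size), depending on the library.

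T-box factors are DNA-binding regulators named after a shared domain and are deployed in spatial patterns in the embryo. *Tbx5* and *Tbx4* are the classic markers of the forelimb and the hindlimb, *Pitx1* acts upstream of *Tbx4* in the hindlimb, and *Tbx2* and *Tbx3* encode repressors known for growth control and digit patterning. *Tbx15* and *Tbx18* are expressed in mesenchyme, *Tbx15* being known for roles in skeletal and glycolytic muscle development. *Lmx1b* encodes the LIM-homeodomain factor of the dorsal limb, and *Ldb2* a cofactor that bridges LIM-domain proteins. *Ldb2* (chr5:44472132-44799680), *Tbx15* (chr3:99240381-99354259), *Tbx18* (chr9:87702800-87731260), *Pitx1* (chr13:55825051-55836192) and *Lmx1b* (chr2:33560965-33640511) have no other member next to them in the mouse genome (GRCm38, GENCODE M21). A pair of them are neighbours on chromosome 11, *Tbx2* (chr11:85832551-85841948) and *Tbx4* (chr11:85886422-85916097), with their starts 53871 bp apart on the same strand. *Tbx3* (chr5:119670669-119684724) and *Tbx5* (chr5:119832668-119885219) form a second such pair with starts 161999 bp apart.

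TET2 oxidizes methylated cytosine, which in mammals is found mostly at CpG dinucleotides. The promoter windows of the members are therefore shown with each CpG in capitals. They are 300 bases long, from 250 before to 50 after the RefSeq start, read 5′ to 3′ on the gene's strand (GRCm38.p6). Windows for 3 of the 9 members were at hand, those of *Tbx4* (chr11:85896515-85896814, plus strand), *Tbx18* (chr9:87731211-87731510, minus strand) and *Lmx1b* (chr2:33641049-33641348, minus strand).
Tbx4: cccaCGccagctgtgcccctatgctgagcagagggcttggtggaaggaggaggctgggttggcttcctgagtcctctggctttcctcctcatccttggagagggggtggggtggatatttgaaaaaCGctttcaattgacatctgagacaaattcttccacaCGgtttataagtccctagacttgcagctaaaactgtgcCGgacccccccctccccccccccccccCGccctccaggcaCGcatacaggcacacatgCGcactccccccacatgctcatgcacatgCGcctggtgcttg
Tbx18: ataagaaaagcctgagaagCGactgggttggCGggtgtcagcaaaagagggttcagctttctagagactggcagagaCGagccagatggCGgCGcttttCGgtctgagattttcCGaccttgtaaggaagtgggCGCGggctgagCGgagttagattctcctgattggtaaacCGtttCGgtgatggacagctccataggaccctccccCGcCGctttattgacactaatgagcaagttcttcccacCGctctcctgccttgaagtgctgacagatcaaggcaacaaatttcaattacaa
Lmx1b: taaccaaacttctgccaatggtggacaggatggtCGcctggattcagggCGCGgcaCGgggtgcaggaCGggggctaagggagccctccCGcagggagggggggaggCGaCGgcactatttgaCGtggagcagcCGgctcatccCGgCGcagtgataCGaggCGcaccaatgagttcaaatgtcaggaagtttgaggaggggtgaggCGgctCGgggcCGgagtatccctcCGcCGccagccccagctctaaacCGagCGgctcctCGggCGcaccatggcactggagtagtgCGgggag
The *Tbx4* window held 8 CpG, against a median of 7 over the 32851 promoter windows, and 51.4% of windows held fewer. Its CpG content was 0.314 of that expected from its C and G content. The *Tbx18* window held 15 CpG (observed over expected 0.755) and the *Lmx1b* window 24 (0.766), more than 65.4% and 80.0% of windows. This *Tbx4* start lies within the GENCODE gene, downstream of its first annotated base. The half-site that T-box proteins bind, GGTGTGA or its reverse complement TCACACC, was not found in any of the 3 windows, and 3.98% of all windows hold it on either strand. Methylation itself was not analysed here.

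The edited genes were looked at first, to check the labels. *Prkaa1* was at 159 CPM in both WT libraries at d0 and at 78.0 and 79.7 CPM in AMPK-KO libraries, a log2 fold change of -1.01 ± 0.13 (SE; adjusted p = 0.0116, edgeR). At d8 it was at 126 and 125 CPM in WT and at 83.3 and 82.5 CPM in AMPK-KO libraries (-0.60 ± 0.13, adjusted p = 0.0419), a call that held in 4 of 13 alternative fits, with adjusted p up to 0.234. *Prkaa2* was at 1.69 and 1.79 CPM in WT and at 0.209 and 0.421 CPM in AMPK-KO libraries at d0 (-2.43 ± 0.51, adjusted p = 0.0527). It was at 8.18 CPM on average in WT cells at d8 and 1.05 CPM in AMPK-KO cells (log2 fold change -2.96 ± 0.47, adjusted p = 0.0190). The calls of *Prkaa1* at d0 and *Prkaa2* at d8 held in 10 and 9 of 13 alternative fits. The libraries labelled AMPK-KO thus lay below WT for both RNAs on both days, without overlap, though neither RNA was absent. *Tet2* RNA averaged 42.9 CPM in TET2-WT and 16.2 CPM in TET2-S97E libraries, and the groups did not overlap (adjusted p = 0.366 over clone sums, edgeR). The gap was narrow, with 22.6 CPM the lowest TET2-WT and 22.1 CPM the highest TET2-S97E library. TET2-WT clone 1 was at 34.4 and 22.6 CPM and clone 2 at 58.4 and 56.2 CPM, a log2 fold change between clones of 1.01 ± 0.43 (adjusted p = 0.231, edgeR). An amino acid change and a tag cannot be read from gene counts, so the TET2 labels could not be checked this way.

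Libraries also differed in muscle markers, which matters for every comparison of groups. The summed level of 10 myoblast and myotube markers was 1809 and 2591 CPM in WT libraries at d0, 7987 and 10110 CPM in WT libraries at d8, and 1281 and 1512 CPM in AMPK-KO libraries at d0. The AMPK-KO libraries at d8 were far apart, at 3138 and 12569 CPM. TET2-WT libraries lay between 1038 and 1466 CPM, whereas TET2-S97E libraries were at 8467 and 4219 CPM in clone 1 and at 2746 and 1272 CPM in clone 2. *Des*, the muscle intermediate filament gene, or *Acta1*, the skeletal muscle actin gene, was the most abundant marker in each library. *Pax7*, the marker of muscle stem cells, was at 0 in replicate 1 of AMPK-KO cells at d0 and at d8, with 1 and 2 counts in the replicates 2. The part of these marker levels in the results below was not tested. Since these are bulk libraries, a lower level of a gene may mean fewer cells that express it or less RNA per cell, which cannot be told apart.

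**Figure D1:**
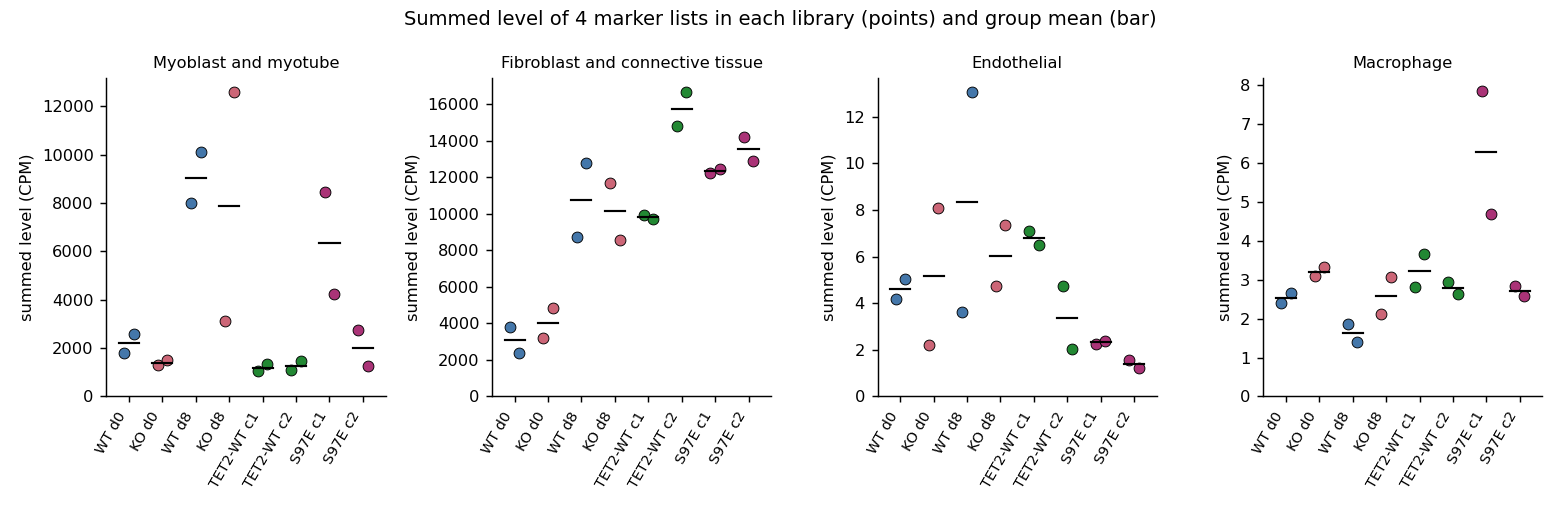
Summed level (CPM) of the markers of 4 cell types in each library (points, 2 per group) with the group mean (bar), for WT and AMPK-KO (KO) cells at d0 and d8 and the TET2-WT and TET2-S97E (S97E) clones 1 and 2 (c1, c2). Muscle marker sums range from 1038 to 12569 CPM, and the 2 KO libraries at d8 stand apart at 3138 and 12569 CPM.

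Markers of endothelium and macrophages were low throughout. The 6 endothelial markers summed to between 1.21 and 13.0 CPM, and *Tie1*, which defines endothelium, was at 0 in 14 of the 16 libraries. *Tek*, an angiopoietin receptor gene, was detected in all 16, at 23 to 212 counts. *Cdh5*, another of the 6, was the most abundant in TET2-S97E clone 1 replicate 2, at 1.39 CPM. Between the TET2-S97E clones 2 endothelial markers were tested and 1 was called lower in clone 2, where 2.82% of all genes were (edgeR). The 5 macrophage markers summed to between 1.41 and 7.86 CPM, with *Cd68* the most abundant and *Tyrobp* at 0 in every library. The 8 fibroblast markers summed to between 2353 and 16708 CPM, most of it *Col3a1*, a collagen gene that C2C12 cells express, and *Tcf21* was at 0 throughout. Other members of that list moved with the groups. At d8 *Dcn*, the decorin gene, was at 879 and 1368 CPM in WT and at 240 and 400 CPM in AMPK-KO libraries, *Postn*, the periostin gene, at 506 and 873 against 127 and 88.1 CPM, *Col1a1* at 449 and 1449 against 35.3 and 75.0 CPM and *Lum*, the lumican gene, at 9.03 and 25.4 against 1.10 and 1.07 CPM. None of these 4 overlapped between the genotypes at d8. The other way, *Scx*, the scleraxis gene of tendon, was at 183 and 126 CPM in WT and at 441 and 287 CPM in AMPK-KO libraries, and *Pdgfra*, a growth factor receptor gene, at 27.2 and 28.2 against 35.8 and 33.7 CPM, also without overlap. Of the 7 fibroblast markers tested, 2 were called lower and 1 higher in AMPK-KO cells at d8, where 5.35% of all genes were called (edgeR). In WT cells 4 of the 7 were called higher at d8 than at d0, where 5.78% of all genes were called higher. The part of these markers in the *Tbx15* and *Tbx3* results at d8 was not tested.

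Of the 9 members, 3 were essentially silent. *Lmx1b* had a single count in all 16 libraries together, in TET2-S97E clone 2, and *Pitx1* had 5 counts in all, never more than 1 in a library. *Tbx5* reached 11 counts in 1 AMPK-KO library at d8 and at most 1 elsewhere. The forelimb factor gene was thus detected in 1 of 16 libraries and the dorsal limb factor gene in none, and *Pitx1*, which lies upstream of *Tbx4* in the hindlimb, was not detected in the TET2-WT libraries that contained *Tbx4* RNA. Counts of 3 members, *Tbx3*, *Tbx15* and *Tbx18*, exceeded 3 in all 16 libraries, *Tbx2* did so in 15, *Tbx4* in 12 and *Ldb2* in 4.

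Levels between genes were compared as TPM, in which counts are scaled to exon length and depth. In WT cells at d0 the order was *Tbx15* at 32.0 ± 0.2 TPM (SD, n = 2), *Tbx18* at 28.4 ± 8.7 TPM, *Tbx3* at 10.2 ± 6.2 TPM, *Tbx2* at 0.390 ± 0.479 TPM and *Tbx4* at 0.369 ± 0.210 TPM. *Tbx15* and *Tbx18* did not differ beyond their spread, nor did *Tbx2* and *Tbx4*. In WT cells at d8 *Tbx15* stood apart at 138 ± 28 TPM, with *Tbx18* next at 53.9 ± 14.3 TPM. In TET2-WT clone 1, *Tbx4* came next at 5.89 ± 0.79 TPM, after *Tbx18* at 14.8 ± 2.2 TPM and *Tbx15* at 14.3 ± 1.3 TPM. In TET2-WT clone 2 the mean of *Tbx4*, 1.86 ± 0.22 TPM, was below those of *Ldb2* (3.91 ± 2.78 TPM) and *Tbx3* (3.78 ± 0.92 TPM). In both TET2-S97E clones *Tbx15* had the highest mean, at 25.8 ± 5.4 and 25.5 ± 2.4 TPM, and *Tbx4* had no count. *Tbx18* came next there at 15.7 ± 3.3 and 22.4 ± 2.1 TPM, and in clone 2 it did not differ from *Tbx15* beyond their spread.

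**Figure D2:**
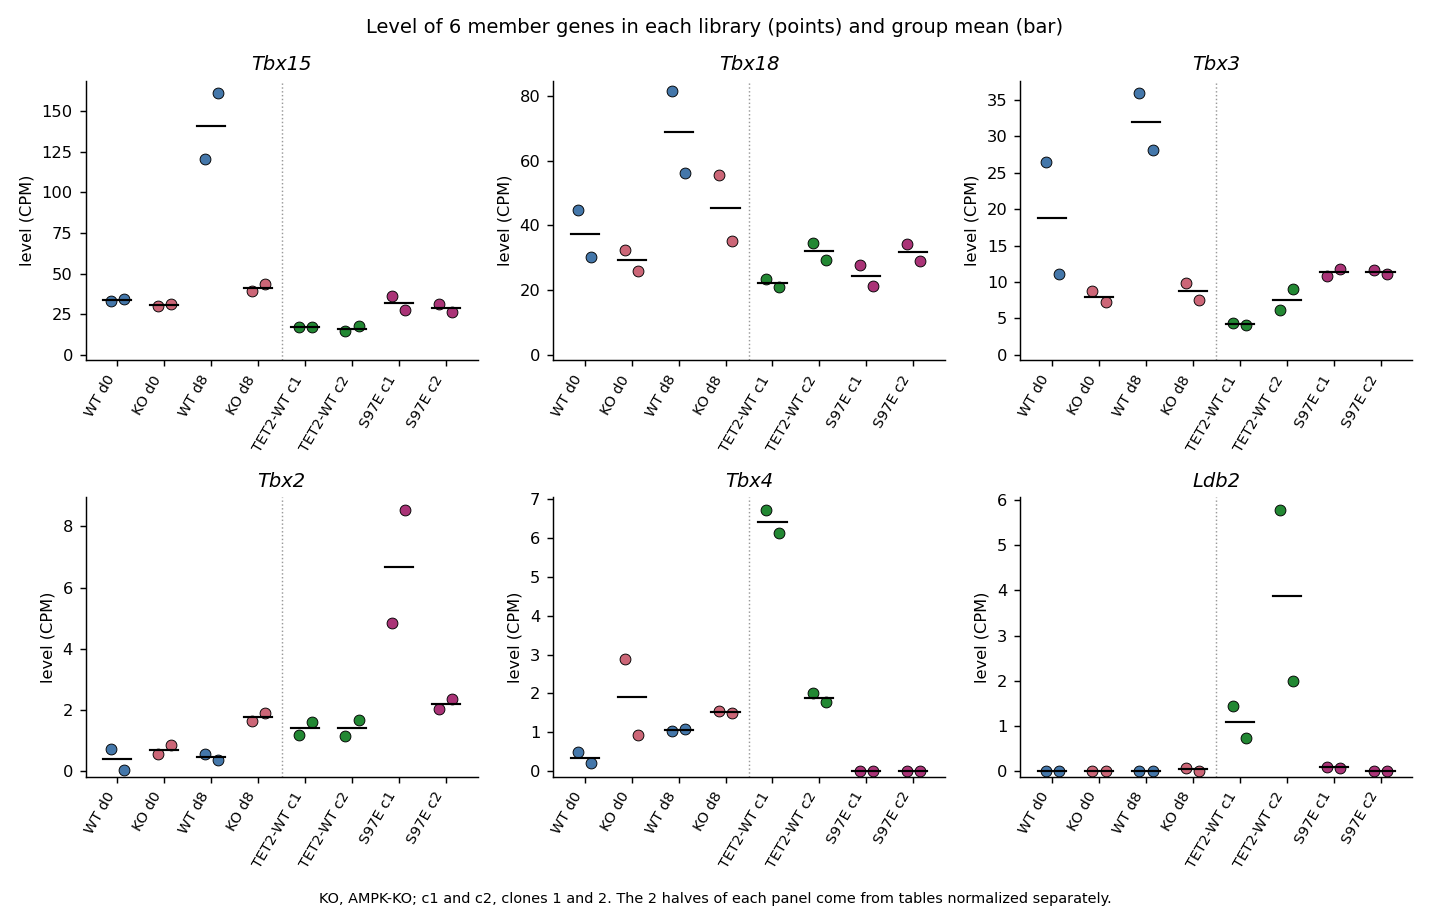
Level (CPM, linear axis) of 6 members in each library (points, 2 per group) with the group mean (bar). *Tbx15* in WT d8 reaches 120 and 161 CPM, *Tbx4* is at 0 in all 4 TET2-S97E (S97E) libraries, and *Ldb2* is above 0.2 CPM in the 4 TET2-WT libraries alone; the dotted line divides tables that were normalized separately.

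*Tbx15*, the mesenchymal and muscle T-box gene, was the member with the clearest pattern over differentiation and AMPK genotype. It was at 33.0 and 34.5 CPM in WT libraries at d0 and at 120 and 161 CPM at d8. In AMPK-KO libraries it was at 29.8 and 31.0 CPM at d0 and at 39.1 and 43.7 CPM at d8. All libraries other than those of WT at d8 thus lay within a narrow band. In WT cells the rise with differentiation was 4.17-fold in mean CPM (log2 fold change 2.06 ± 0.18, SE; adjusted p = 0.0135, edgeR). This call was lost when WT d0 replicate 2 (adjusted p = 0.0567), WT d8 replicate 1 (0.0612) or WT d8 replicate 2 (0.115) was left out. In AMPK-KO cells the change was 0.44 ± 0.18 on the log2 scale and did not pass the test (adjusted p = 0.153).

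At d8 the *Tbx15* level of AMPK-KO cells was 0.294 times that of WT cells, a log2 fold change of -1.77 ± 0.18 (adjusted p = 0.00494, edgeR). This call held in all 13 alternative fits. Leaving out 1 library at a time, the log2 fold change ran from -1.941 to -1.525. It was -1.67 without the AMPK-KO library of low muscle markers, which leaves 1 library in that group. The part of these markers was not tested. At d0 the AMPK-KO libraries lay just below the WT libraries, and the log2 fold change of -0.15 ± 0.18 did not pass the test (adjusted p = 0.684). The difference between the effects at d8 and at d0 was -1.61 ± 0.25 on the log2 scale. Its unadjusted p was 3.1e-04, but over the 14329 genes tested it did not pass (adjusted p = 0.845, edgeR), and no gene did. By DESeq2 the same difference was called, as 1 of 60 genes.

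*Tbx3*, the repressor gene, was also lower without AMPK. WT libraries were at 26.4 and 11.1 CPM at d0 and at 36.0 and 28.1 CPM at d8, against 8.74 and 7.20 CPM and 9.87 and 7.53 CPM in AMPK-KO libraries. The genotypes did not overlap on either day, although the WT libraries at d0 were more than a factor of 2 apart. At d8 the fall was 1.88 ± 0.42 on the log2 scale and just passed the test (log2 fold change -1.88, adjusted p = 0.0488, edgeR). That call was lost on leaving out any one of 6 libraries (those of AMPK-KO d0, AMPK-KO d8 and WT d8), with adjusted p from 0.0771 to 0.223. At d0 the log2 fold change was -1.23 ± 0.41 (adjusted p = 0.153, edgeR). Leaving out 1 library at a time, it ran from -1.725 to -0.482. *Tbx3* was called at d0 without the filter on low counts, and its lowest adjusted p over the alternative fits was 0.00289 (edgeR). The fit without the filter called 2026 of 25084 genes at d0, where the main fit called 505 of 14329. *Tbx3os1*, an antisense RNA gene, overlaps *Tbx3*, and since it is not stated whether counting used strand, their reads may not be fully separated; *Tbx3os1* itself had at most 12 counts in a library.

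*Tbx18* was the steadiest of the expressed members. WT libraries were at 44.7 and 30.3 CPM at d0 and at 81.6 and 56.2 CPM at d8, and AMPK-KO libraries at 32.5 and 25.9 CPM and at 55.4 and 35.3 CPM. Levels of both genotypes were higher at d8, and replicate 1 was above replicate 2 in all 4 groups. The change with differentiation was 0.88 ± 0.31 on the log2 scale in WT cells (adjusted p = 0.108) and 0.64 ± 0.31 in AMPK-KO cells (adjusted p = 0.230). With the replicate number as a block both passed (adjusted p = 0.0172 and 0.0444). Between genotypes *Tbx18* was not called at d0 (log2 fold change -0.36 ± 0.31, adjusted p = 0.565) or at d8 (-0.60 ± 0.31, adjusted p = 0.298).

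*Tbx2* and *Tbx4*, the neighbours on chromosome 11, were both scarce in the first experiment. *Tbx2* had 15 and 1 counts in WT libraries at d0, 10 and 8 at d8, 11 and 18 in AMPK-KO libraries at d0 and 40 and 39 at d8. Its AMPK-KO level at d8 was 3.81 times that of WT, without overlap, but the difference was not called (log2 fold change 1.92 ± 0.85, adjusted p = 0.235). At d0 its difference (0.83 ± 0.88, adjusted p = 0.648) vanished when the WT library with 1 count was left out (log2 fold change -0.02). *Tbx4* had 10 and 4 counts in WT libraries at d0, 19 and 23 at d8, 55 and 20 in AMPK-KO libraries at d0 and 38 and 31 at d8. At d0 the AMPK-KO mean was 5.45 times the WT mean and the groups did not overlap. Yet the difference did not pass the test (log2 fold change 2.41 ± 0.68, adjusted p = 0.113, edgeR). Leaving out 1 library at a time, the log2 fold change ran from 1.386 to 3.085. *Tbx4* was called at d0 without the filter on low counts, among 2026 genes where the main fit called 505. Its lowest adjusted p over the alternative fits was 0.0079 (edgeR). At d8 the ratio was 1.44 (log2 fold change 0.52 ± 0.62, adjusted p = 0.663).

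Counted over the members, 5 of the 9 were abundant enough to be tested in the first experiment (*Tbx2*, *Tbx3*, *Tbx4*, *Tbx15* and *Tbx18*). At d0, 0 of these 5 differed between the AMPK genotypes by edgeR, where 3.52% of all genes tested were called. At d8, 2 of 5 differed, both lower in AMPK-KO cells (*Tbx15* and *Tbx3*), where 5.35% of all genes were called and 3.98% were called lower. Between d8 and d0, 1 of 5 differed in WT cells (*Tbx15*, higher), where 12.4% of genes were called and 5.78% were called higher. With the replicate block 2 of 5 were called, where 2360 of all 14329 genes were. In AMPK-KO cells 0 of 5 differed between the days, where 9.76% of genes were called. With the block 1 of 5 was called (*Tbx18*), where 1854 of all 14329 genes were. These comparisons share libraries and are not independent of each other.

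**Figure D3:**
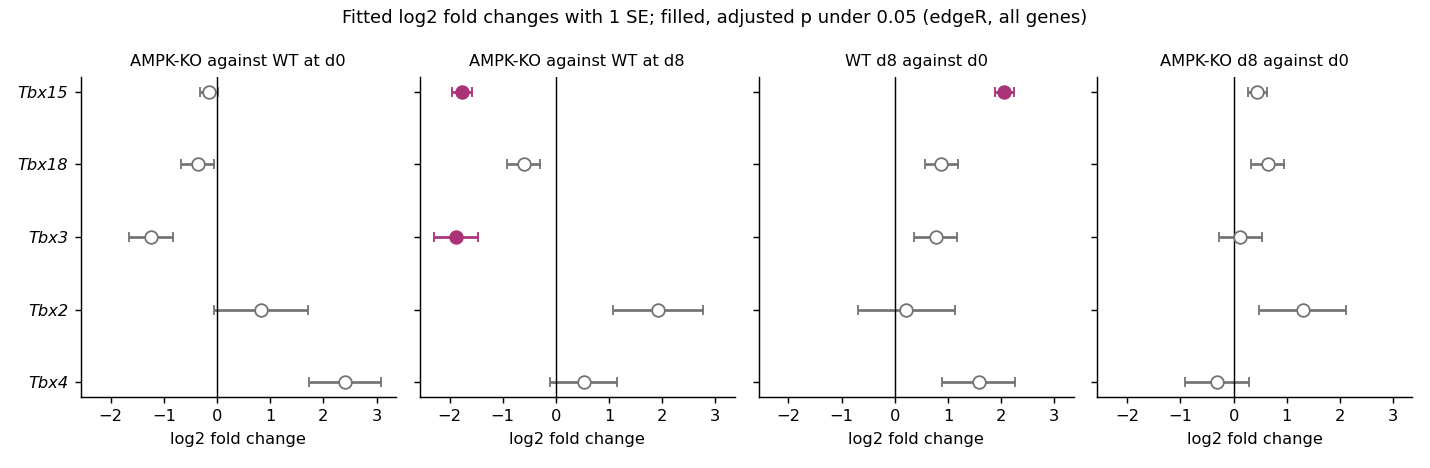
Fitted log2 fold change (x axis) with 1 SE for the 5 members tested in 4 comparisons of the first experiment; filled symbols passed an adjusted p of 0.05 (edgeR, over all genes tested). *Tbx15* and *Tbx3* are lower in AMPK-KO at d8 (-1.77 and -1.88), *Tbx15* is higher at d8 than at d0 in WT (2.06), and the other values did not pass.

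In the TET2 experiment *Tbx4*, the hindlimb factor gene, was on in TET2-WT cells and had no read in TET2-S97E cells. It was at 6.71 and 6.12 CPM in TET2-WT clone 1 (148 and 231 counts) and at 2.02 and 1.77 CPM in TET2-WT clone 2 (44 and 50 counts). All 4 TET2-S97E libraries had 0 counts, out of 19801909 to 32109879. With the TET2-S97E libraries set at the floor of 3 counts per library, *Tbx4* was at least 33.4-fold lower in TET2-S97E than in TET2-WT. The 2 TET2-WT clones differed by -1.76 ± 0.40 on the log2 scale (clone 2 against clone 1), which did not pass the test (adjusted p = 0.101, edgeR) but was called by DESeq2 (adjusted p = 0.0252). In the first experiment, AMPK-KO libraries at d0, of the background from which these clones were derived, held 2.88 and 0.935 CPM of *Tbx4*. The tables were normalized separately, so levels set across them are a description.

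*Ldb2*, the LIM cofactor gene, was likewise detected, at over 3 counts, in TET2-WT clones only. It was at 1.45 and 0.741 CPM in TET2-WT clone 1 (32 and 28 counts) and at 5.77 and 1.99 CPM in TET2-WT clone 2 (126 and 56 counts). TET2-S97E clone 1 had 2 counts in each library and clone 2 had none. Pooled over libraries, 242 counts in TET2-WT stood against 4 in TET2-S97E, where every library was at or under the floor of 3 counts. Clone 2 of TET2-WT was higher than clone 1, by 1.83 ± 0.64 on the log2 scale, and this was not called (adjusted p = 0.181, edgeR). Leaving out 1 library at a time, the difference ran from 0.868 to 2.41. It was called without the filter on low counts, among 1627 genes where the main fit called 124. Its lowest adjusted p over the alternative fits was 0.0167 (edgeR). The order of the TET2-WT clones was thus opposite for the 2 genes, *Tbx4* being higher in clone 1 and *Ldb2* in clone 2. In the first experiment *Ldb2* had 0 counts in 7 of 8 libraries and 2 counts in the other, and none was detected in AMPK-KO cells at d0. A count of 0 in the AMPK-KO libraries at d0 allows up to 0.157 CPM.

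*Tbx2*, next to *Tbx4*, was higher in TET2-S97E libraries. It was at 1.18, 1.61, 1.15 and 1.67 CPM in the TET2-WT libraries, at 4.83 and 8.52 CPM in TET2-S97E clone 1 and at 2.02 and 2.35 CPM in clone 2. The genotypes did not overlap, with means of 1.40 and 4.43 CPM. Within TET2-S97E, clone 2 was lower than clone 1 by 1.61 ± 0.40 on the log2 scale (log2 fold change -1.61, adjusted p = 0.0484, edgeR), the clone 1 libraries being farther from TET2-WT. That call was lost in 5 of the 12 alternative fits, those without TET2-S97E clone 1 replicate 2, without either library of TET2-S97E clone 2 and without either library of TET2-WT clone 1 (adjusted p from 0.0997 to 0.299).

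*Tbx15* and *Tbx3* were also higher in TET2-S97E libraries, without overlap. *Tbx15* was at 17.4, 16.9, 14.5 and 17.8 CPM in TET2-WT and at 36.3, 27.7, 31.0 and 26.4 CPM in TET2-S97E libraries, a ratio of means of 1.82. *Tbx3* was at 4.40 and 4.05 CPM in TET2-WT clone 1, at 6.09 and 8.98 CPM in TET2-WT clone 2 and between 10.9 and 11.8 CPM in the 4 TET2-S97E libraries, a ratio of 1.93. Both had lower levels in AMPK-KO cells at d8 (above), and 3 of the 4 TET2-S97E libraries have muscle marker sums above every TET2-WT library. Within TET2-S97E, the library with 1272 CPM of muscle markers held 11.1 CPM of *Tbx3* and 26.4 CPM of *Tbx15*. The library with 8467 CPM held 10.9 and 36.3 CPM. Of the fibroblast markers, *Postn* was also higher in TET2-S97E without overlap. It was at 4.58, 2.89, 29.0 and 65.7 CPM in TET2-WT and 95.6, 229, 218 and 295 CPM in TET2-S97E libraries. The other fibroblast markers that were detected overlapped between the TET2 genotypes. The part of these markers in the TET2 results was not tested. *Tbx18* did not separate the genotypes, with means of 27.1 ± 6.1 CPM in TET2-WT and 28.1 ± 5.4 CPM in TET2-S97E (SD, n = 4 libraries of 2 clones).

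Over the clones, 6 members passed the filter on low counts (*Ldb2* in addition to the 5 above). *Tbx4* and *Ldb2* passed it only through the TET2-WT libraries. Between the TET2-WT clones none of the 6 was called by edgeR, where 0.858% of all genes were called, and 1 (*Tbx4*) was called by DESeq2, among 894 genes. With the replicate block in edgeR *Tbx4* was also called, among 677 genes. *Tbx4* and *Ldb2* were at or under the floor in every TET2-S97E library, so that no difference between the TET2-S97E clones could be seen for them. Of the other 4 members, 1 differed between the TET2-S97E clones (*Tbx2*, lower in clone 2), where 6.17% of all genes were called and 2.82% were called lower. Between TET2-S97E and TET2-WT, the test over clone sums called no gene of 15126 (0%, with 1575 at an unadjusted p under 0.05), the 2 clones a side leaving 2 residual degrees of freedom. DESeq2 called 566 genes on the same sums.

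The genes on either side of *Tbx4* and *Ldb2* were not lower in TET2-S97E to a like degree. *Gm11444*, which lies between *Tbx2* and *Tbx4*, was not detected. *Bcas3*, on the far side of *Tbx2*, averaged 43.4 CPM in TET2-WT and 34.9 CPM in TET2-S97E (log2 fold change -0.32 ± 0.19, adjusted p = 0.659). *Brip1*, the helicase gene beyond *Tbx4*, averaged 3.28 and 7.07 CPM (1.05 ± 0.48, adjusted p = 0.549). The neighbours of *Ldb2*, *Tapt1* (44.9 and 51.5 CPM) and *Qdpr* (22.5 and 36.0 CPM), had higher means in TET2-S97E and were not called. Of the 15 nearest protein-coding neighbours of all members, 13 were tested in this contrast and 0 were called, which is also the count over all genes. *Wars2*, 1194 bp from *Tbx15*, averaged 6.64 CPM in WT and 9.06 CPM in AMPK-KO cells at d8 (log2 fold change 0.45 ± 0.26, adjusted p = 0.356), with *Tbx15* the other way.

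**Figure D4:**
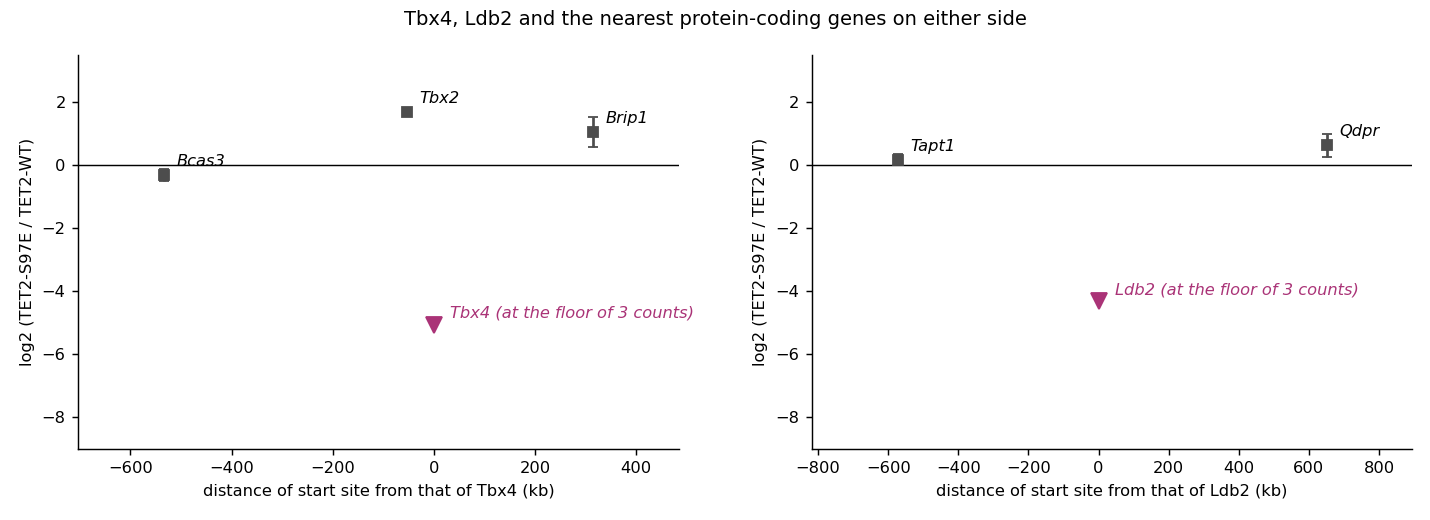
Log2 ratio of TET2-S97E to TET2-WT (y axis) against the distance of each gene's start from that of *Tbx4* (left) or *Ldb2* (right), in kb. Squares are neighbours with 1 SE (none is drawn for *Tbx2*), and the triangles are *Tbx4* and *Ldb2* with each TET2-S97E library set at the floor of 3 counts (for *Tbx4*, at least 33.4-fold lower); neighbours lie between -0.32 and 1.67.

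The genes around the members in limb patterning were followed in 5 lists with 108 genes. At d0, 63 of them were abundant enough to test. Of these, 5 differed between AMPK-KO and WT cells, 4 lower and 1 higher, where 3.52% of all genes were called. Among the 4 lower, *Bmp4*, *Gja5* and *Lhx2* passed the filter on low counts only through WT libraries. With the replicate block 8 of 63 were called, where 740 of all 14329 genes were. The median log2 fold change at d0 was -0.33 over the 63 and -0.001 over all genes. At d8, 7 of 63 differed, 6 lower and 1 higher, where 5.35% of all genes were called. Among the 6 lower, *Bmp4*, *Gja5*, *Hoxa13* and *Lhx2* passed the filter only through WT libraries. On both days the split into lower and higher is thus a description. With the block 12 of 63 were called, where 1144 of all 14329 genes were. The median at d8 was -0.04 against 0.04 over all genes. By list, the other T-box genes had 2 of 11 members tested and none called at either day. Of the PITX and LIM-homeodomain factors and their cofactors, 14 of 22 were tested and 1 was lower at each day. Of the limb patterning transcription factors, 30 of 45 were tested, with 1 higher at d0 and 1 higher and 2 lower at d8. Of the limb patterning signals, 12 of 23 were tested and 2 were lower at each day. Of the genes known as T-box targets, 5 of 7 were tested and 1 was lower at each day.

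The signal genes that fell were *Bmp4* and *Rarb*. *Bmp4*, a secreted growth factor of limb and digit patterning, had 1455 and 81 counts in WT libraries at d0 and 771 and 990 at d8. AMPK-KO libraries had 2 and 1 counts at d0 and 1 and 0 at d8. The ratio at d0 was 525, with a 95% counting interval of 179 to 2546 (counting error only) and an adjusted p of 0.0340, the WT libraries themselves being 70.2 and 4.39 CPM. The fitted *Bmp4* log2 fold change, which for so few counts depends on the fit, was -8.86, and -5.78 without WT d0 replicate 1. *Rarb*, a retinoic acid receptor gene, was at 6.75 and 3.42 CPM in WT and at 0.314 and 0.468 CPM in AMPK-KO libraries at d0 (log2 fold change -3.68 ± 0.63, adjusted p = 0.0290). It was again low in AMPK-KO cells at d8 (-4.75 ± 0.68, adjusted p = 0.0140).

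Transcription factor and target genes were called in both directions. *Lhx2*, a LIM-homeodomain factor of the limb bud, had 35 and 35 counts in WT libraries at d0 and none in AMPK-KO libraries. It was thus at least 12.1-fold lower in AMPK-KO cells (adjusted p = 0.0219, edgeR). As every AMPK-KO library had 0 counts, *Lhx2* passed the filter on low counts only through WT libraries. *Osr1*, a zinc-finger gene of connective tissue, was at 4.90 and 5.02 CPM in WT libraries at d8, while AMPK-KO libraries were at 0.326 and 0.437 CPM (log2 fold change -3.69 ± 0.65, adjusted p = 0.0251). *Hoxa13*, which marks the distal limb, reached 28 and 96 counts in WT libraries at d8, and AMPK-KO libraries had 2 and 0 (adjusted p = 0.0288). *Gja5*, the connexin 40 gene and a known T-box target, was at 36.4 and 33.5 CPM in WT cells at d8 and at 0.0408 and 0.194 CPM in AMPK-KO cells (-8.20 ± 0.55, adjusted p = 0.00398). *Lef1*, a mediator of WNT signalling, was the gene that went up, from 9.89 and 10.7 CPM in WT to 42.8 and 34.9 CPM in AMPK-KO cells at d0 (1.92 ± 0.32, adjusted p = 0.0271). Over the alternative fits, *Gja5* at d8 was called in 13 of 13, *Rarb* at d8 in 11, *Bmp4* and *Osr1* at d8 and *Lef1* at d0 in 9, *Bmp4* and *Rarb* at d0 and *Hoxa13* at d8 in 8 and *Lhx2* at d0 in 7. *Lef1* and *Lhx2*, also called at d8, held there in 6 of 13, and *Gja5*, also called at d0, in 6 of 12, always in the same direction. Calls were lost on leaving out 1 library of any group, most often a WT d8 library, or on fitting the compared libraries alone. *Bmp4*, *Gja5* and *Hoxa13*, near 0 in AMPK-KO libraries, likewise passed the filter on low counts only through WT libraries. For these genes and *Lhx2* the p-values add little to the levels given.

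**Figure D5:**
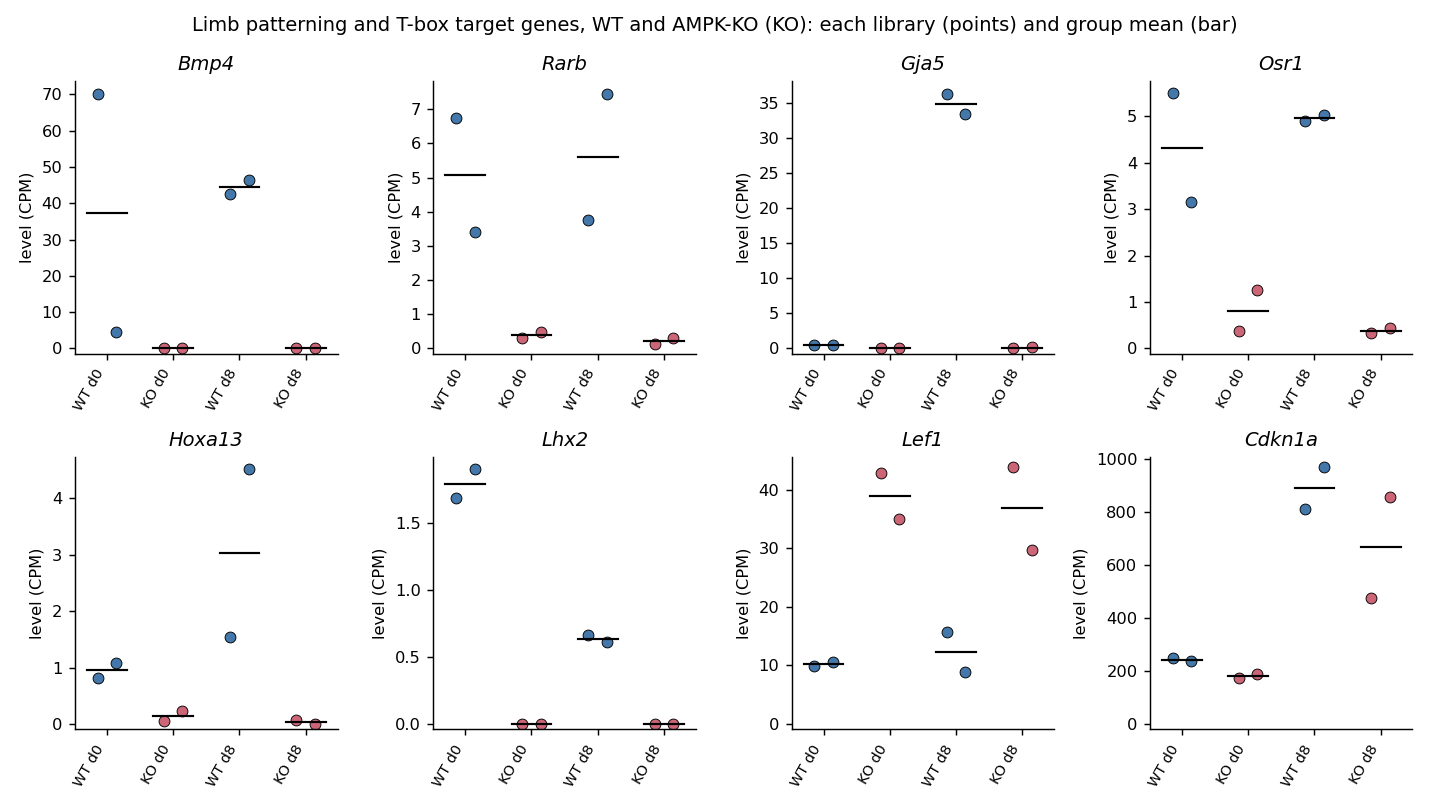
Level (CPM, linear axes that differ between panels) of 8 list genes in each WT and AMPK-KO (KO) library of the first experiment (points) with the group mean (bar). *Bmp4*, *Rarb*, *Gja5*, *Hoxa13* and *Lhx2* are near 0 in KO libraries, *Osr1* is lower there without overlap (up to 1.26 CPM at d0), *Lef1* is higher in KO libraries, and *Cdkn1a* is higher at d8 than at d0 in both genotypes.

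With differentiation, 4 of 63 list genes in WT cells were called, where 12.4% of all genes were, with *Gja5* (6.16 ± 0.48) and *Cdkn1a*, the gene of the cell cycle inhibitor p21 (1.88 ± 0.29), higher and *Gli3*, a hedgehog pathway factor (-1.10 ± 0.25), and *Rlim*, which encodes a ubiquitin ligase of LIM cofactors (-0.57 ± 0.14), lower on the log2 scale. In AMPK-KO cells 3 of 63 were called, where 9.76% of all genes were, all higher, namely *Cdkn1a* (1.89 ± 0.29), the BMP receptor gene *Bmpr1a* (0.78 ± 0.15) and *Ssbp2*, which encodes a partner of LDB proteins (0.98 ± 0.20). *Cdkn1a* is known as a gene that *Tbx2* and *Tbx3* repress; it rose in both genotypes. Over the 13 alternative fits the WT calls held in 10 (*Gja5* and *Cdkn1a*), 7 (*Gli3*) and 3 (*Rlim*) and the AMPK-KO calls in 11 (*Cdkn1a*), 7 (*Ssbp2*) and 6 (*Bmpr1a*). The *Rlim* call was lost without any one of the 8 libraries, and each of the others without at least 1 library of the groups compared. No list gene passed the test of the difference between the genotypes' effects on the 2 days, with 3 at an unadjusted p under 0.05 by edgeR and 0 called by DESeq2.

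Between TET2-S97E and TET2-WT, 0 of 56 tested list genes were called (6 at an unadjusted p under 0.05, and 3 called by DESeq2), with a median log2 fold change of -0.03 against -0.01 over all genes. The 2 TET2-S97E clones differed in 5 of 56, where 6.17% of all genes were called, and between the TET2-WT clones none of the 56 was called, where 0.858% of all genes were (10 at an unadjusted p under 0.05, edgeR). *Lmo2*, the gene of a LIM-only protein that binds LDB cofactors, was at 0.101 and 0.454 CPM in clone 1 and at 5.46 and 6.16 CPM in clone 2 (log2 fold change 4.27 ± 0.59, adjusted p = 0.00364). *Fgf10*, the growth factor gene of limb bud outgrowth, was 7.28 times higher in clone 2 (2.80 ± 0.39, adjusted p = 0.00370). *Osr2* was also higher in clone 2 (2.09 ± 0.48, adjusted p = 0.0350) and *Fgfr1*, a receptor of fibroblast growth factors, lower (-0.72 ± 0.17, adjusted p = 0.0393). Over 12 alternative fits *Lmo2* and *Fgf10* were called in 12, *Osr2* in 7 and *Fgfr1* in 6, the losses following on leaving out 1 library.

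The genes whose pattern over the libraries was most like that of a member were found by Pearson's correlation of log2(CPM + 0.5), centred within each table, as a description. Over all 16 libraries and 13499 genes, *Tbx15* was most like *Gm5532* (r = 0.973), *Hephl1* (0.971) and *Slc2a6* (0.960). *Tbx3* was most like *Mmp2* (0.949), *Sh3pxd2a* (0.942) and *Sec22c* (0.924). *Tbx18* was most like *Osmr* (0.933), *Il6st* (0.916) and *Gm43682* (0.916). *Tbx4* was most like *Syt5* (0.927), *Adh5* (0.920) and *Gng5* (0.900), and *Tbx2* like *Frrs1* (0.925), *Steap3* (0.894) and *Mettl21a* (0.889). *Ldb2*, compared over the 8 TET2 libraries and 14458 genes, was most like *Cyp2b27-ps* (0.983), *Dmbx1* (0.977) and *Dpy19l1* (0.974). The libraries share groups, clones and tables, and the genes named are the highest of all compared, so these values describe likeness in this series.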

How the data were processed

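Per the labels and the study's methods, the authors sequenced ribosomal RNA-depleted total RNA from both ends, demultiplexed with bcl2fastq 2.17, trimmed with Trim Galore 0.4.5, aligned to GRCm38 (mm10) with STAR 2.5.3a and counted with featureCounts 1.5.3 on GENCODE M12. The deposited values are raw counts of reads per gene, in 1 table per experiment. Whether counting used strand, and how reads with several alignments were treated, is not given in the sources used here, so counts of overlapping genes, of which *Ldb2* has 11 within its span, are uncertain. Gene names and positions came from GENCODE M21 (49326 of 49585 identifiers matched). Promoter sequences came from RefSeq.

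The members and the gene lists were chosen with earlier results of these data known. The main tests used edgeR 4.0.16 in R 4.3.3 (filterByExpr, TMM, glmQLFit, glmQLFTest; Benjamini-Hochberg over all genes tested, threshold 0.05), which was first tested on simulated data. The first experiment was fitted as 1 model with 4 group means (14329 genes, 4 residual degrees of freedom). The 4 clones entered another (14459 genes). TET2-S97E was compared with TET2-WT on counts summed per clone (15126 genes), because the libraries of a clone are not separate clones. CPM used TMM library sizes, and TPM used merged exon lengths. SE is that of the fitted log2 fold change. A fold against libraries all at 0 was computed against 3 counts per library. Likeness of pattern was measured on log2(CPM + 0.5), centred in each table.

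Named genes were the 9 members, *Prkaa1*, *Prkaa2* and *Tet2*, at most 4 called genes per list and comparison with the lowest adjusted p, the 3 genes most alike to each member, and the nearest protein-coding genes on either side of each member. Of the list genes that this rule names, 1 is not reported here. Muscle, fibroblast, endothelial and macrophage markers were read as 4 lists. In the first experiment, deviations of same-numbered libraries from their group means correlated between every pair of groups (0.119 to 0.324). The replicate numbers may thus pair the libraries. The main tests did not use this pairing, and the replicate block was run as an alternative only. Alternatives were DESeq2 1.42.0 (size factors, Wald test), no filter, a replicate block, only the libraries compared, each library or clone left out, the 8 TET2 libraries as replicates, and limma 3.58.1 voom with clone as random effect.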

Additional observations from a re-analysis of the deposited data

How the results depend on the processing

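The call of *Tbx15* as lower in AMPK-KO cells at d8 held in 13 of 13 alternatives, those of *Tbx15* with WT differentiation, *Tbx3* at d8 and *Tbx2* between the TET2-S97E clones in 10 of 13, 7 of 13 and 7 of 12, all in the same direction. The DESeq2 Wald test called 1393 genes for AMPK-KO against WT at d0, 1656 at d8, 2762 for d8 against d0 in WT cells, 2532 in AMPK-KO cells, 60 for the difference of the AMPK-KO effects, 894 between the TET2-WT clones, 1383 between the TET2-S97E clones and 566 between the TET2 genotypes. Without the filter on low counts these numbers were 2026, 2503, 3293, 3039, 449, 1627, 1680 and 113. With the libraries compared alone, 335 genes were called at d0 and 788 for d8 against d0 in AMPK-KO cells. For the TET2 genotypes, 8 libraries as replicates gave 938 genes (858 with a replicate block) and limma-voom gave 166. The causes of these changes were not tested.

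Members called by the Wald test numbered 2 for WT differentiation, 1 for the difference of the AMPK-KO effects and 1 between the TET2-WT clones. Without the filter they numbered 2 at d0 (*Tbx3* and *Tbx4*), 2 for WT differentiation, 1 for that difference and 2 between the TET2-WT clones (*Tbx4* and *Ldb2*). Other list genes called numbered 12 at d0, 15 at d8, 8 and 7 for differentiation of WT and AMPK-KO cells and 3 between the TET2 genotypes by the Wald test, and 23, 20, 7, 10 and, for the difference of the AMPK-KO effects, 1 without the filter. With the libraries compared alone they numbered 3 at d0 and 2 for WT differentiation, and 4, 4 and 2 between the TET2 genotypes with 8 libraries, with 8 libraries and a block and with limma-voom. The replicate block raised other list genes called to 8 at d0 and 12 at d8 and members called to 2 for WT and 1 for AMPK-KO differentiation, and it raised genes called higher in AMPK-KO cells from 100 to 172 at d0 and from 195 to 329 at d8. It moved no other total of genes or members called in the first experiment over 1.5-fold. In the TET2 experiment the correlations ranged from -0.0214 to 0.506. Pairs of clones without TET2-WT clone 1 were at 0.393, 0.441 and 0.506, and those with it at 0.0391, 0.102 and -0.0214. The numbers may thus pair the libraries of some clones, which the main tests did not use. The block gave 677 genes and 1 member (*Tbx4*) between the TET2-WT clones, where the main fit gave 124 genes. Between the TET2-S97E clones it gave 1540 genes, where the main fit gave 892.

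Leaving out 1 library at a time, genes called ranged from 17 to 613 at d0 (17 and 46 without the AMPK-KO d0 libraries), 107 to 902 at d8 (108 and 107 without the WT d8 libraries), 0 to 2260 for WT differentiation (0 without WT d0 replicate 2 or WT d8 replicate 2, 2 without WT d8 replicate 1), 0 to 1737 for AMPK-KO differentiation (0 and 1 without the AMPK-KO d0 libraries), 0 to 6 for the difference, 0 to 313 between the TET2-WT clones, 472 to 1014 between the TET2-S97E clones and, with clones left out too, 0 to 184 between genotypes. Members called ranged from 0 to 1 at d0, 1 to 2 at d8, 0 to 2 for WT differentiation and 0 to 1 between the TET2-S97E clones; other list genes ranged from 0 to 5, 1 to 8, 0 to 6 and 0 to 4 in the 4 comparisons of the first experiment and 0 to 2 between TET2 genotypes. Signs turned for *Tbx2* at d0 (log2 fold change from -0.022 to 3.56; -0.022 without WT d0 replicate 2), for *Tbx4* with AMPK-KO differentiation (-0.90 to 0.68; 0.68 without AMPK-KO d0 replicate 1), and for *Tet2* at d0 and d8 (-0.55 to 0.14 and -0.33 to 0.053).

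Depth limits *Tbx2*, *Tbx4* and *Ldb2*, of which most libraries held under 100 counts, and *Pitx1* and *Lmx1b*, and *Tbx5* in 15 of 16 libraries, were at or under the floor of 3 counts. With 2 libraries a group, and 2 clones a genotype, a difference that was not called is not shown to be absent.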
